A study of Rattus norvegicus with 10 samples.

Results

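Ion channel genes of the voltage-gated and related families were examined in pituitary neurointermediate lobes from water-deprived and control rats. The genes were chosen by their symbols (potassium channels Kcn, sodium channels Scn, calcium channels Cacn, pacemaker channels Hcn, chloride channels Clcn and the Trpc, Trpm and Trpv branches of the transient receptor potential channels) and by a mean signal of 20 or more over all 10 arrays. Each gene was represented by the probe set with the highest mean signal. Of 137 genes with such a symbol, 76 met the signal threshold, out of 14217 genes that had a probe set with a single symbol. The values that selected the members were their mean signals over both groups, so that the members' being bright enough to measure is not a finding. Just outside the threshold lay Kcna6 at 18.67, Kcnj11 at 19.15, Kcnj3 at 19.24 and Kcne2 at 19.36, and just inside it lay Kcnn3 at 20.57, Trpv2 at 20.8, Kcnk3 at 21.26 and Trpc6 at 22.6.

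RNA was measured on 10 Affymetrix Rat Genome 230 arrays of version 2.0, on which a probe set of short oligonucleotides reports each transcript. Of these, 5 arrays carried lobes of male Sprague Dawley rats dehydrated for 3 days and 5 carried lobes of control males, aged 10 to 12 weeks in both groups. Every array held RNA pooled from 5 animals, so that the error terms describe pools and not single rats. The labels name no genotype or agent beyond this, and the tissue was taken from them, although the design text speaks of the supraoptic nucleus.

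This lobe joins the neural lobe, where hypothalamic axons that release vasopressin or oxytocin terminate among glia called pituicytes, with the intermediate lobe and its melanotrophs. Voltage-gated sodium and potassium channels shape the action potentials that invade the axon terminals, and calcium channels couple those potentials to hormone release. Potassium channels that open with calcium or at rest shorten firing, while chloride and transient receptor potential channels serve cell volume, endosomes and signalling. Setting dehydrated lobes against control lobes addresses which of these transcripts differ in the whole lobe when water is withheld for days. The RNA was not separated by cell type, so no value below can be assigned to axon terminals, pituicytes or melanotrophs.

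The arrays resembled each other, with pairwise correlations of r = 0.947 to 0.976 across probe sets on the log2 scale and median signals of 35.7 to 39.6. Precision throughout is limited by how many arrays there were. RNA length was read from the control probe sets for beta-actin and GAPDH as a log2 ratio of 3' over 5' signal, which is higher when RNA or its copies are shorter. It was 2.15 ± 0.38 on dehydrated arrays and 1.78 ± 0.48 on control arrays (SD, n = 5; exact permutation test, two-sided, p = 0.214). Array 5 of the dehydrated group had a ratio of 1.61 and array 1 of the control group 2.52, each on the side of the other group. The summed signals of marker genes also differed. Over 8 axon terminal genes they ran from 5699 to 7546 on dehydrated arrays and from 4245 to 4604 on control arrays (exact two-sided permutation p = 0.00794, the smallest that 5 against 5 arrays can give). Avp and Oxt, the hormone genes themselves, were the 2 called members of that list. Nefl (-0.21), Nefm (-0.21), Nefh (-0.19) and Syt1 (-0.01) had negative log2 differences, Snap25 had 0.21 and Stmn2 0.13, and none of these 6 was called. Over 6 melanotroph genes the sums were 5447 to 6053 and 5989 to 6934 (exact two-sided permutation p = 0.0159), with Pcsk2 called (-0.88). Scg2 (-0.30), Pomc (-0.09), Drd2 (-0.08), Tbx19 (-0.01) and Chga (0.12) were not called. The sums of 9 pituicyte genes (5209 to 6000 and 4542 to 4910, with 4 genes called higher), 8 fibroblast genes (9474 to 11945 and 6540 to 7219, with 4 called higher) and 9 genes of endothelium and pericytes (1494 to 1874 and 1011 to 1307, with 4 called higher) did not overlap between the groups. Nor did those of 5 genes of Schwann cells and oligodendrocytes (916.5 to 985.2 and 688.9 to 823.4), where Pmp22 was called higher, Mbp had -0.03 and the other 3 genes were too dim to test. Each of these 4 lists had an exact two-sided permutation p of 0.00794. Uncalled pituicyte genes were Vim (0.24), Glul (0.01), Rax (-0.19), S100b (-0.21) and Aqp4 (-0.22). Uncalled fibroblast genes were Pdgfra (0.37), Col1a1 (0.23), Col3a1 (0.14) and Col1a2 (-0.175). Mgp, a fibroblast gene called higher, had means of 5104 on dehydrated arrays and 2544 on control arrays. Uncalled genes of endothelium and pericytes were Plvap (0.44), Tek (0.26), Pdgfrb (0.04), Pecam1 (-0.01) and Cldn5 (-0.05). The sums of 8 anterior lobe genes (4837 to 9424 and 2587 to 7973), 8 macrophage genes (1061 to 1672 and 1042 to 1344) and 8 muscle genes (1064 to 1453 and 1010 to 1399) overlapped between the groups. Among these genes Fshb, of the anterior lobe, was called lower (-0.86) and Aif1, of macrophages, higher (0.42), and no other was called. Uncalled genes included Tshb (1.17), of the anterior lobe, and Cd68 (-0.74), of macrophages. No gene on these lists was at 0 on all arrays, and the part of tissue makeup in the channel values below was not tested. In whole tissue, fewer cells of a type and less RNA per cell cannot be told apart.

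The promoters of the genes at the centre of the comparison are shown first, as the 250 bases before the annotated start in RefSeq (assembly GRCr8), read 5′ to 3′ on the gene's strand. Clcn4, Kcna4 and Kcnd2 are shown because their arrays separated completely between the groups, Kcnd3 because it is the sister gene of Kcnd2, and Kcne3 because its difference was the largest in size among the members that passed the filter described below. Capitals mark GC boxes, the letters GGGCGG on either strand (CCGCCC where the match lies on the opposite one).
Clcn4: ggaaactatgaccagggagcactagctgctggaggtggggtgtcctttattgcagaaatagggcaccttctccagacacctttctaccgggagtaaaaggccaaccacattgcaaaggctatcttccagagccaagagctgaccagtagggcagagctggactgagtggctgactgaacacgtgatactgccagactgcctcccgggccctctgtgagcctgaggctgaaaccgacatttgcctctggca
Kcna4: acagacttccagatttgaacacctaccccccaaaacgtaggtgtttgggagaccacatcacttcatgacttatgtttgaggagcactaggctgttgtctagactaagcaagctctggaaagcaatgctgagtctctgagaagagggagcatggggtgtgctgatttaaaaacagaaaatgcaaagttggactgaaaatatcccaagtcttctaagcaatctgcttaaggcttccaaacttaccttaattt
Kcnd2: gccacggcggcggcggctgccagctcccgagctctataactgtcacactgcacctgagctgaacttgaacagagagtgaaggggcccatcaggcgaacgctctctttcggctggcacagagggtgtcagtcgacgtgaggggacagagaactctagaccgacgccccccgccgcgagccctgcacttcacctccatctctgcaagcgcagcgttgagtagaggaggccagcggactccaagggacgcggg
Kcnd3: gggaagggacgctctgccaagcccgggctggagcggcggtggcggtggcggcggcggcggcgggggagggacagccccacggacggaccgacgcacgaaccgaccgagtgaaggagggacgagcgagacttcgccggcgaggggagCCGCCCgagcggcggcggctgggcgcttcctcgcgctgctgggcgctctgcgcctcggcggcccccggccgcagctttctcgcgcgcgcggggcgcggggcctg
Kcne3: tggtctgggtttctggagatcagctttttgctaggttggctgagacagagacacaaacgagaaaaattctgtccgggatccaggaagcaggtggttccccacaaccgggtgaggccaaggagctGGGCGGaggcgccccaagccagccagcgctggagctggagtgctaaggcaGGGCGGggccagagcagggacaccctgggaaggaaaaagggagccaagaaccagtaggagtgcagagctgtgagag

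Clcn4 lies at chrX:27290689-27290938, Kcna4 at chr3:114215086-114215335, Kcnd2 at chr4:50742235-50742484, Kcnd3 at chr2:195626066-195626315 and Kcne3 at chr1:163935785-163936034, all on the plus strand in GRCr8. Kcnd3 held 1 GC box, starting 104 bases before the start, and Kcne3 held 2, at 126 and 76 bases before it, whereas the windows of Clcn4, Kcna4 and Kcnd2 held none. GC content differed widely, being 42.8% in Kcna4, 55.2% in Clcn4, 59.6% in Kcne3, 64.0% in Kcnd2 and 79.6% in Kcnd3. Across the members, 58 of 76 could be matched to a RefSeq promoter by gene ID. Their median GC content was 64.2%, against 60.4% for 8824 genes with a tested probe set and 51.2% for all 33469 promoters. The ratio of observed to expected CpG had a median of 0.649 in members, 0.75 in genes with a tested probe set and 0.383 in all promoters. GC boxes occurred in 51.7% of members, 60.2% of genes with a tested probe set and 30.5% of all promoters. The TATA sequence TATAAA, on either strand, occurred in 1.72%, 6.19% and 12.9%, and the cyclic AMP response element TGACGTCA in 1.72%, 2.99% and 1.59%, respectively. A match is a description of letters and not of a bound factor.

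No ion channel gene differed between dehydrated and control lobes at an adjusted p under 0.05 (limma with Benjamini-Hochberg adjustment over 18625 probe sets). A filter on low signals left 68 of the 76 members in the test, and 0 of them were called, while 2.46% of all probe sets were. At an unadjusted p under 0.05 the members numbered 14, of which 12 were lower in dehydrated lobes and 2 were higher. Of the 2 higher ones, Kcne3 passed the filter only through its dehydrated arrays. The lower ones made up 17.6% of members, against 8.66% of all probe sets, and the higher ones 2.94%, against 8.7% of all probe sets. In 3 members every dehydrated array lay below every control array, which is 4.41% of those tested, against 1.81% of all probe sets. In 0 members did every dehydrated array lie above, against 2.78% of all probe sets.

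Among the tested members, on the log2 scale, with 5 added to each signal, the differences ran from -0.42 in Clcn2 to 0.93 in Kcne3, and 41 of 68 were under 0.2 in size. The median was -0.036 in members and -0.012 in all probe sets, and 60.3% of members had a negative value, against 52.6% of all. For 67 members the 95% interval of the difference lay wholly inside a 2-fold change in either direction, as it did for 97.6% of all probe sets. The exception was Kcne3. For 45 members (66.2%) it lay inside a 1.5-fold change, against 79.8% of all probe sets. Precision followed signal: the median standard error was 0.096 for the 21 members with a mean signal of 100 or more, of which 19 had an interval inside a 1.5-fold change, and 0.182 for the 29 members under 50, of which 12 had.

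The count of negative values varied with the arrays and the scaling, while the count at an unadjusted p under 0.05 had more lower than higher members in all settings given here. Without array 5 of the dehydrated group and array 1 of the control group together, 33 of 67 members were negative (50.3% of all probe sets), with 11 lower and 5 higher (12.2% and 10.8% of all). Without array 4 of the dehydrated group alone, 33 of 67 were negative (52% of all), with 10 lower and 2 higher (8.58% and 8.67% of all). Without array 5 of that group alone, 33 of 66 were negative (51.2% of all), with 11 lower and 5 higher (11.7% and 10.6% of all). Leaving out its array 1 instead gave 44 of 66 negative (53% of all), with 9 lower and 0 higher (7.05% and 7.6% of all). Leaving out its array 2 gave 43 of 66 (53.8% of all), with 11 lower and 3 higher (7.33% and 7.69% of all). Among the brightest 40% of probe sets, 26 of 35 members were negative (50.4% of all), with 10 lower and 0 higher (9.38% and 11.1% of all). When the RNA length ratio entered as a covariate, 44 of 68 were negative (54.1% of all), with 12 lower and 2 higher (6.05% and 6.84% of all). Centring each array on its median log2 value moved all probe sets upward alike, to a median of 0.025 from -0.012. It left 34 of 68 members negative against 44.8% of all probe sets, with 7 members lower and 5 higher against 5.52% and 11.1% of all.

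**Figure D1:**
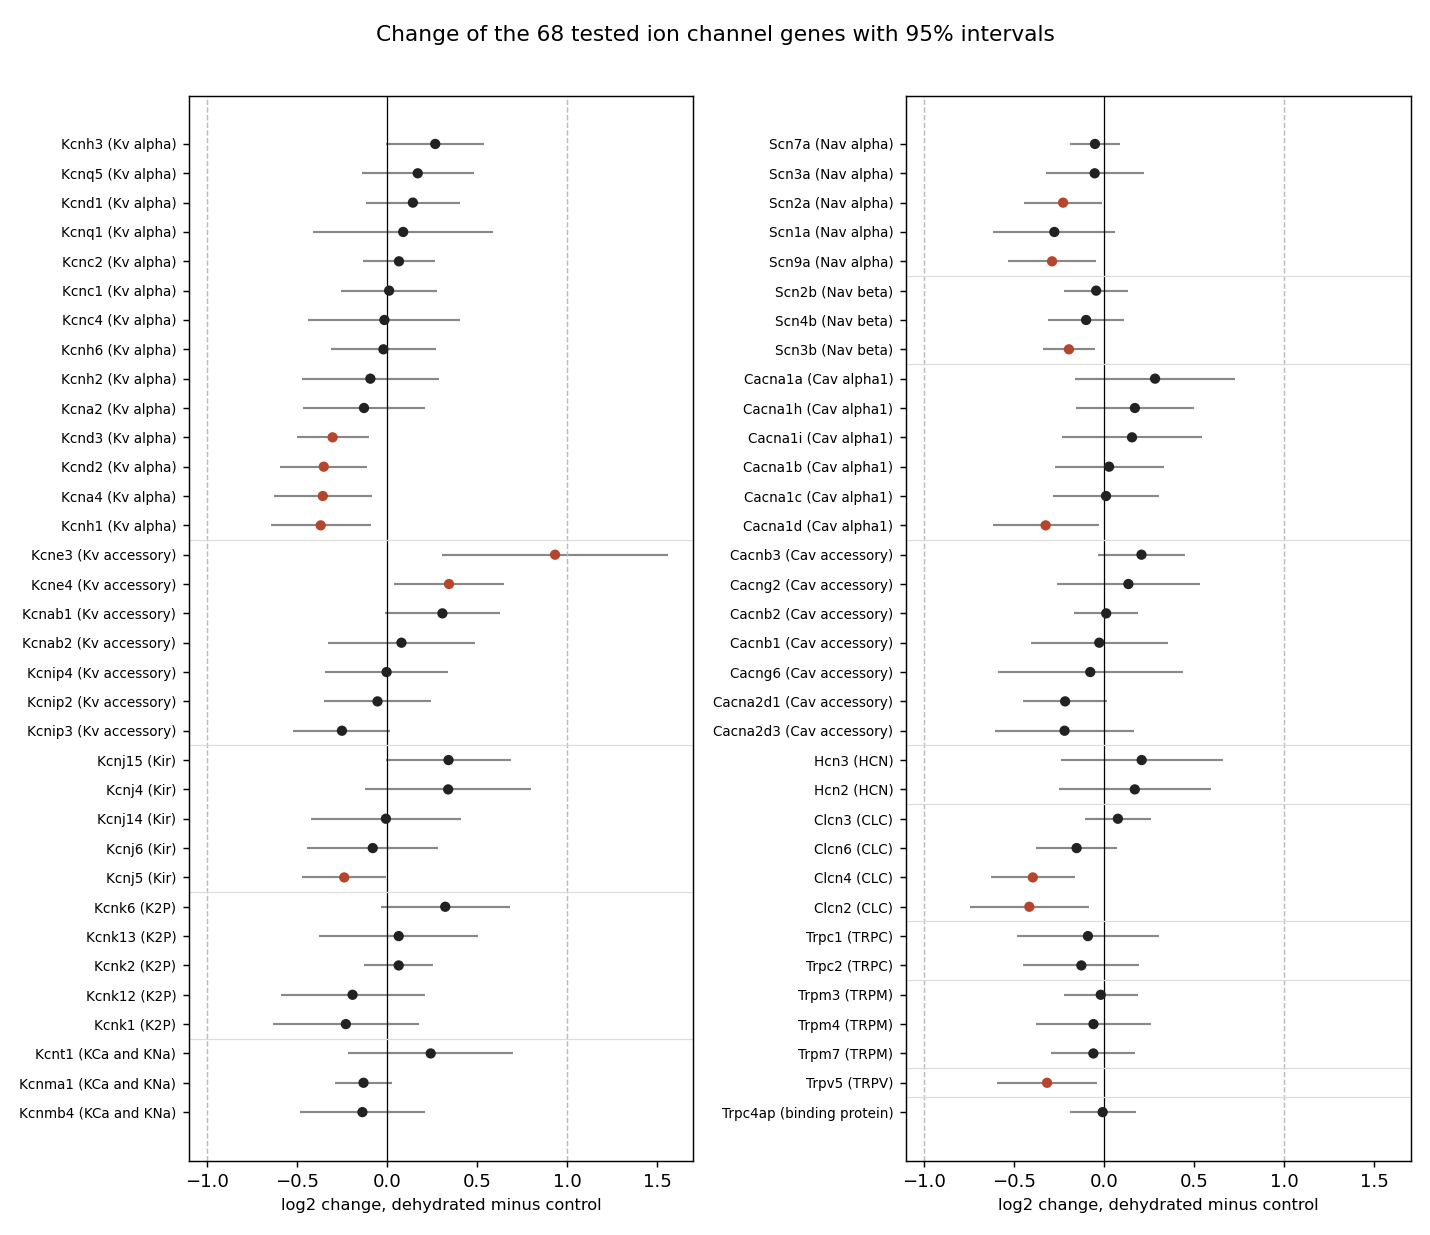
Log2 difference between dehydrated and control lobes (x axis, on log2(signal + 5)) for the 68 tested channel genes, grouped by family (Kv, voltage-gated potassium; Kir, inward rectifier; K2P, resting potassium; KCa and KNa, calcium- or sodium-activated potassium; Nav, sodium; Cav, calcium; HCN, pacemaker; CLC, chloride; TRPC, TRPM and TRPV, transient receptor potential). Bars are 95% intervals from limma, red points have an unadjusted p under 0.05, and dashed lines mark a 2-fold change, which the interval of Kcne3 alone crosses.

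Pore-forming subunits of voltage-gated potassium channels formed the largest family, with 16 members of 31 genes, of which 14 were tested. Among them 8 were negative and 6 positive, with a median of -0.02. Several of these pores form A-type channels, which inactivate rapidly after opening. The A-type pores that are tested members, grouped here after their values had been seen, are Kcnd1, Kcnd2, Kcnd3, Kcna4 and Kcnc4, and none was called. Kcnd2 read 50.4, 52.3, 44.7, 59.4 and 54.2 on the dehydrated arrays and 63.8, 69.0, 64.1, 72.3 and 69.8 on the control arrays. The groups did not overlap, and the means were 52.2 ± 5.37 and 67.8 ± 3.72 (SD, n = 5). The log2 difference was -0.35 ± 0.11 (SE), with a limma adjusted p of 0.118.

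Kcnd3, its sister A-type pore gene, expressed in neurons and heart, read 182.9, 156.5, 153.1, 173.5 and 148.9 on the dehydrated arrays and 230.4, 215.6, 207, 182 and 177.8 on the control arrays. The highest dehydrated array lay above the lowest 2 control arrays, so the groups overlapped. Its means were 163 ± 14.5 and 203 ± 22.4 (SD, n = 5), a log2 difference of -0.30 ± 0.09 (SE; limma adjusted p = 0.104). A second probe set of Kcnd3 gave -0.32 (adjusted p = 0.184), with means of 61.2 ± 7.05 and 77.5 ± 9.17 (SD, n = 5).

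Kcna4, an A-type pore gene of the Shaker branch that is carried to axons, read 33.3, 36.9, 34.9, 34.4 and 37.2 on the dehydrated arrays and 40, 45.2, 45.9, 50.5 and 52.5 on the control arrays. Again no arrays overlapped. The means were 35.3 ± 1.67 and 46.8 ± 4.89 (SD, n = 5), with a log2 difference of -0.36 ± 0.13 (SE; limma adjusted p = 0.161). The third Kcnd gene, Kcnd1, had the opposite sign, at 0.14 ± 0.12 (SE; adjusted p = 0.590), and Kcnc4, the A-type pore of the Shaw branch, had -0.02 ± 0.20 (SE; adjusted p = 0.980).

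The auxiliary proteins of these channels were drawn together after the values of the pore genes had been seen. Kcnip3, a calcium-binding protein that sits on Kcnd channels, had a log2 difference of -0.25 ± 0.13 (SE; limma adjusted p = 0.325). Its relatives Kcnip2 and Kcnip4 had -0.05 and -0.00. Dpp6, a membrane protein of the same complexes that is no member, had means of 269 ± 23.2 and 311 ± 30.1 (SD, n = 5) and a log2 difference of -0.21 ± 0.09 (SE; adjusted p = 0.231). None of these 4 passed the test. Dpp10, a relative of Dpp6, was too dim for the filter and was not tested, with means of 17.5 ± 6.81 and 27.3 ± 5.18 (SD, n = 5).

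Kcnip1 was too dim for the filter when all arrays were averaged. Its control mean of 34.3 lay above the filter's limit of about 22.4, and its dehydrated mean of 15.3 lay below it. Kcnip1 read 30.7, 17.8, 2.2, 15.7 and 9.9 on the dehydrated arrays against 34.8, 30.3, 38, 30.5 and 38.1 on the control arrays. Of the dehydrated arrays, array 1 lay inside the control range and the other 4 lay below it. In the fit without a filter, over 31042 probe sets of which 321 were called, the log2 difference was -1.14 ± 0.33 (SE; limma adjusted p = 0.147).

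Kcnh1, the ether-a-go-go channel, read 50.8, 58.3, 55.5, 58 and 57.5 on the dehydrated arrays and 85.5, 68.5, 94.1, 67.4 and 58.3 on the control arrays. The dehydrated arrays were narrowly spread and met the control arrays at a single shared value, 58.3. Its log2 difference was -0.37 ± 0.13 (SE; limma adjusted p = 0.160). Of its relatives, Kcnh3 had 0.27 (adjusted p = 0.296), Kcnh2 -0.09 and Kcnh6 -0.02. Kcna2, a delayed rectifier of axons, had means of 189 ± 46.4 and 204 ± 31.8 (SD, n = 5) and a log2 difference of -0.13 ± 0.16 (SE; adjusted p = 0.729). Kcnc1, of the rapidly closing Shaw branch that allows fast firing, had 0.01 ± 0.13 (SE; adjusted p = 0.978). The remaining tested members of the family, Kcnc2, Kcnq1 and Kcnq5, lay between 0.07 and 0.17 on the probe sets used. Other probe sets of Kcnc2 and Kcnq5, described further below, had -0.47 and -0.51, and neither was called.

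**Figure D2:**
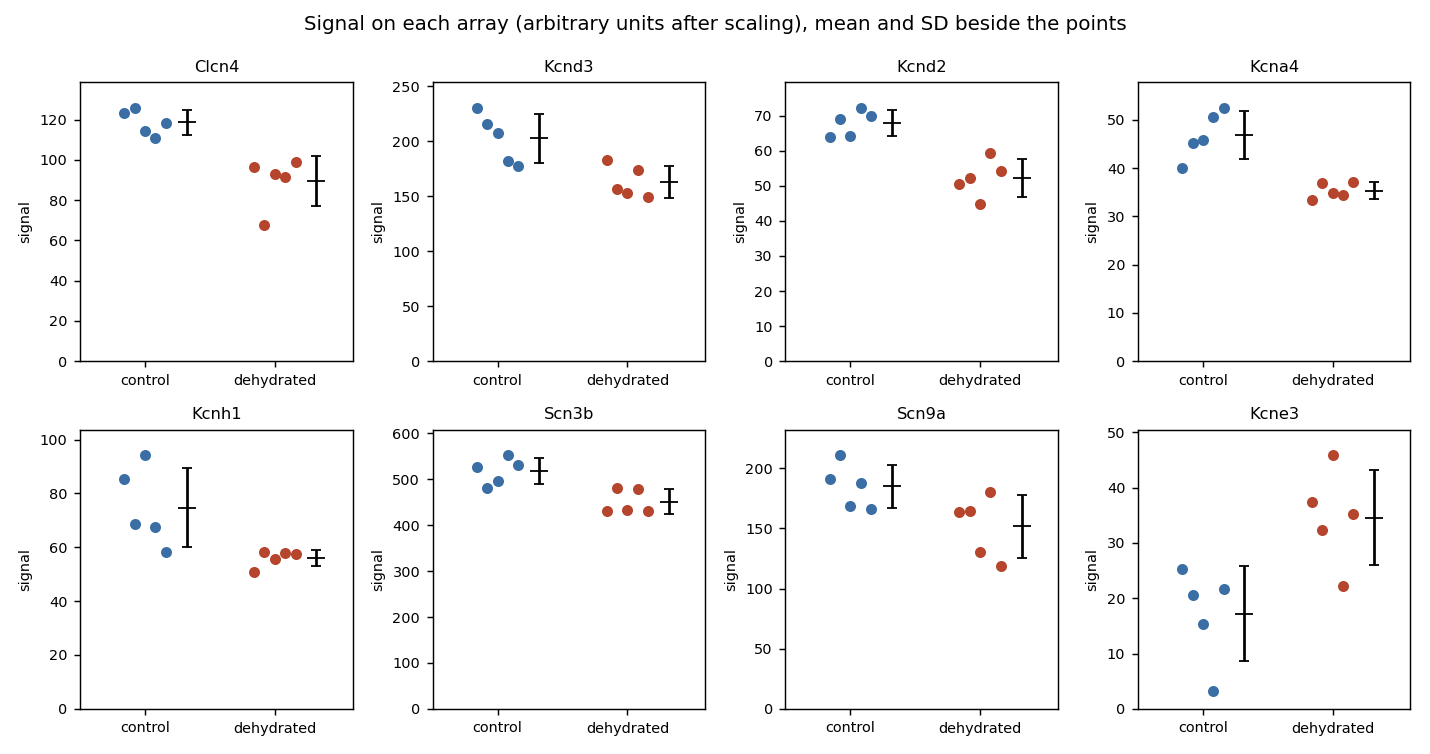
Signal on each array (y axis, linear scale in arbitrary units after the authors' scaling) for 8 channel genes with small unadjusted p-values, with the mean and SD beside each group of 5 arrays. The dehydrated arrays of Clcn4, Kcnd2 and Kcna4 all lie below the control arrays, and those of Kcnd3, Kcnh1, Scn3b, Scn9a and Kcne3 share values or overlap with them.

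Accessory subunits of voltage-gated potassium channels held both members that were higher at an unadjusted p under 0.05. They belong to the Kcne family, single-span proteins that alter the gating of potassium channel pores. Kcne3 read 37.3, 32.3, 45.8, 22.2 and 35.2 on the dehydrated arrays and 25.2, 20.5, 15.3, 3.3 and 21.7 on the control arrays. Only array 4 of the dehydrated group lay inside the control range, and control array 4 was far below its own group. Means were 34.6 ± 8.55 and 17.2 ± 8.54 (SD, n = 5), with a log2 difference of 0.93 ± 0.30 (SE; limma adjusted p = 0.111), which was 0.61 without control array 4. The control mean lay below 22.4, the signal that matched the filter's limit, so Kcne3 was tested only through its dehydrated arrays. The same holds for Kcnj4 and Kcnt1, whose control means on the log2 scale lay below the limit, while Cacng6 passed only through its control arrays.

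Kcne4 read 56.6, 41.2, 51.7, 49.9 and 48 on the dehydrated arrays and 45, 42.7, 36.1, 28.4 and 38.6 on the control arrays. A single dehydrated array lay inside the control range. On the log2 scale the difference was 0.34 ± 0.14 (SE; limma adjusted p = 0.233). Among the beta subunits that bind Shaker channels inside the cell, Kcnab1 had 0.31 (adjusted p = 0.308) and Kcnab2 had 0.08 (adjusted p = 0.874).

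Inward rectifiers, which hold cells near the potassium equilibrium potential, had 5 members of 15 genes and none was called. Kcnj5, a subunit of the channels that G proteins open, had means of 72.4 ± 8.46 and 86.0 ± 6.06 (SD, n = 5) and a log2 difference of -0.24 ± 0.11 (SE; limma adjusted p = 0.276). Its partner subunit Kcnj6 had -0.08. Kcnj15 and Kcnj4 were both at 0.34, with adjusted p of 0.294 and 0.449, the latter tested only through its dehydrated arrays, and Kcnj15 lies directly beside Kcnj6 in the GRCr8 gene order. The glial potassium channel genes Kcnj10 and Kcnj16 were below the signal threshold and are not members.

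Among the channels that carry resting potassium current, Kcnk2, which responds to stretch and lipids, was measured closely. It read 285.2, 285.1, 260.8, 243.3 and 328.6 on the dehydrated arrays and 265.6, 237.9, 252.8, 283.7 and 298.3 on the control arrays, and the ranges overlapped almost wholly. The log2 difference was 0.06, with a 95% interval of -0.13 to 0.26. Kcnk6 had 0.32 ± 0.17 (SE; limma adjusted p = 0.341) and Kcnk1 -0.23 ± 0.19 (SE; adjusted p = 0.577).

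Kcnma1 encodes the pore of the large-conductance calcium-activated potassium channel, which ends action potentials and limits release at neurohypophysial terminals. It read 411.6, 387.9, 431.7, 415.6 and 423 on the dehydrated arrays and 465.8, 464.1, 455, 499.2 and 390.6 on the control arrays. Control array 5 lay within the dehydrated range and the other 4 control arrays above it. Its log2 difference was -0.13, with a 95% interval of -0.29 to 0.03 (limma adjusted p = 0.386). Its accessory subunit Kcnmb4 had -0.14 ± 0.16 (SE; adjusted p = 0.719), and the sodium-activated channel Kcnt1, tested only through its dehydrated arrays, had 0.24 ± 0.22 (SE; adjusted p = 0.608).

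Sodium channel genes had negative values in all 5 pore members and all 3 beta members tested. None was called. All 8 remained negative after quantile normalization, centring on the median and cyclic loess, but Scn7a stood at 0.01 without dehydrated array 5 and control array 1, Scn3a at 0.01 without control array 4 and Scn2b at 0.02 without dehydrated array 4. The 5 pore genes lie in 1 cluster on chromosome 3: in the GRCr8 order Scn3a adjoins Scn2a, Scn1a adjoins Scn9a, Scn9a adjoins Scn7a, and 4 protein-coding genes lie between Scn2a and Scn1a. The largest size was that of Scn9a, a channel of slow closed-state inactivation that is found in neuroendocrine cells. It read 163.8, 164.7, 130.4, 180.7 and 118.9 on the dehydrated arrays and 191.5, 210.7, 168.9, 187.6 and 166.5 on the control arrays. A single dehydrated array lay inside the control range. On the log2 scale the difference was -0.29 ± 0.11 (SE; limma adjusted p = 0.203).

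Scn2a, a main sodium channel of unmyelinated axons, read 89.1, 93.5, 91.3, 105.5 and 96.2 on the dehydrated arrays and 104.5, 103.2, 108.5, 136.6 and 110.7 on the control arrays. One dehydrated array lay within the control range, and control array 4 stood above the others. The log2 difference was -0.23 ± 0.10 (SE; limma adjusted p = 0.260). Scn1a had -0.28 (adjusted p = 0.397) and Scn3a -0.05 (adjusted p = 0.875).

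Scn7a encodes an atypical member of the family that is not opened by voltage and responds to extracellular sodium in glia of the organs that sense body fluid. It read 2720, 2817, 2891, 2758 and 2403 on the dehydrated arrays and 2946, 2807, 2800, 2690 and 2820 on the control arrays, and the groups overlapped. Its log2 difference was -0.05, with a 95% interval of -0.19 to 0.09 (limma adjusted p = 0.739). After quantile normalization it was -0.23 with an adjusted p of 0.0255. Its call therefore depended on the normalization.

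Among the beta subunits, which set the surface level and gating of the pores, Scn3b read 430, 481.3, 433.9, 479.4 and 431.5 on the dehydrated arrays and 527.6, 481.3, 496.7, 551.8 and 530 on the control arrays. The groups met at a shared value of 481.3. On the log2 scale the difference was -0.20 ± 0.07 (SE; limma adjusted p = 0.153), and a second probe set gave -0.26 (adjusted p = 0.191). Scn2b had -0.04 (adjusted p = 0.835), and its chromosomal neighbour Scn4b had -0.10 (adjusted p = 0.650).

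Calcium channels supply the calcium that triggers hormone release. Of the 6 pore members, 5 had positive values and none was called. When the RNA length ratio entered as a covariate, 4 of the 6 were negative. Cacna1a and Cacna1b, the pores of P/Q-type and N-type channels of nerve endings, had log2 differences of 0.28 ± 0.21 (SE; limma adjusted p = 0.522) and 0.03 ± 0.14 (SE; adjusted p = 0.949). Cacna1c, an L-type pore, had 0.01 ± 0.14 (SE; adjusted p = 0.982). The T-type pores Cacna1h and Cacna1i had 0.17 and 0.15. Of the accessory subunits, Cacnb3 had 0.21 ± 0.11 (SE; adjusted p = 0.375), Cacnb2 0.01 ± 0.08 (SE; adjusted p = 0.966) and Cacna2d3 -0.22 ± 0.18 (SE; adjusted p = 0.572).

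The L-type pore gene Cacna1d was the calcium channel pore with a negative value. It read 91.5, 97.4, 90.3, 109.2 and 141.1 on the dehydrated arrays and 98.7, 140.2, 133.2, 133.2 and 163.7 on the control arrays. Dehydrated array 5 stood at the upper control level and control array 1 at the dehydrated level. The means were 106 ± 21.1 and 134 ± 23.3 (SD, n = 5), and the log2 difference was -0.33 ± 0.14 (SE; limma adjusted p = 0.241).

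Cacna2d1 encodes the subunit that brings calcium channel pores to release sites and binds gabapentin. It read 318.1, 327.1, 353.6, 404.8 and 450 on the dehydrated arrays and 342.6, 430.4, 497.3, 411.1 and 476.5 on the control arrays. Here too dehydrated array 5 was the highest of its group and control array 1 the lowest of its own. The log2 difference was -0.22 ± 0.11 (SE; limma adjusted p = 0.329).

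Both genes followed the 3' to 5' ratio of the array within the groups. In a model with the group and the ratio together, which was added after the data had been seen, Cacna1d changed by -0.51 ± 0.13 (SE; limma adjusted p = 0.0261) and Cacna2d1 by -0.44 ± 0.09 (SE; adjusted p = 0.00906) on the log2 scale for each unit of the log2 ratio. The group differences in that model were -0.13 (adjusted p = 0.667) for Cacna1d and -0.05 (adjusted p = 0.850) for Cacna2d1. In the fit without dehydrated array 5 and control array 1, and without the ratio, the differences were -0.53 (limma adjusted p = 0.0113) and -0.37 (adjusted p = 0.0288). Both genes were called there. Those 2 arrays are the ones whose ratios lay on the side of the other group, and they were picked from earlier results of these data. With them left out, the ratios ran from 2.05 to 2.67 on dehydrated arrays and from 1.26 to 1.91 on control arrays. Group and ratio therefore cannot be told apart in that fit.

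Slopes on the ratio passed the test in 4 of 68 members, or 5.88%, against 4.32% of all probe sets. Beside the 2 calcium channel genes these were Kcnh2, the HERG-type potassium channel, at -0.63 ± 0.17 (SE; limma adjusted p = 0.0419), and Trpc1, at 0.66 ± 0.17 (SE; adjusted p = 0.0388). For Trpc1 the group difference was -0.09 without the ratio and -0.34 with it (adjusted p = 0.343), and for Kcnh2 it was -0.09 without and 0.14 with it (adjusted p = 0.761).

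**Figure D3:**
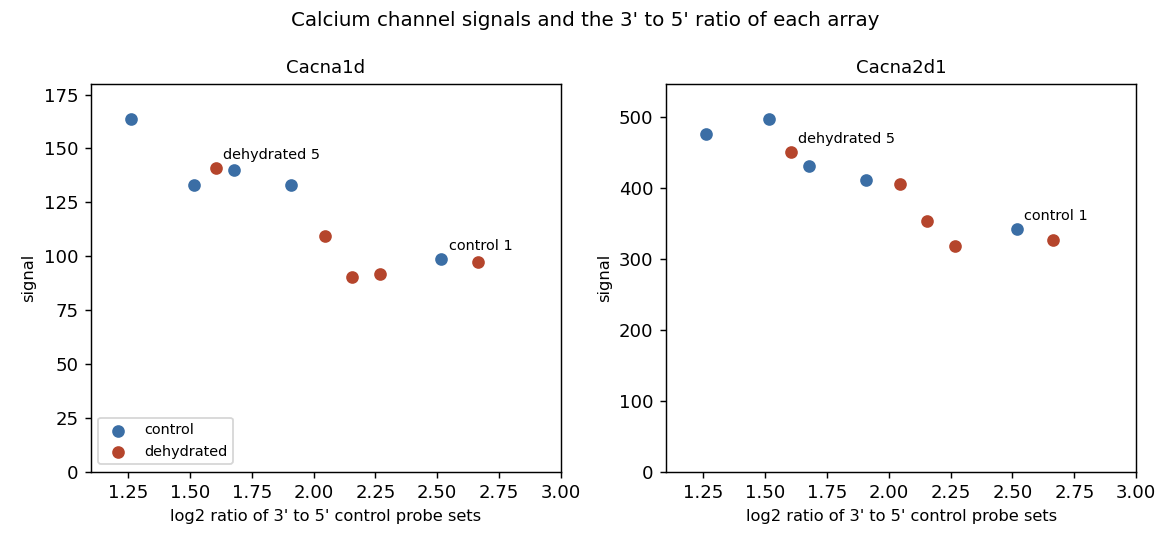
Signal of Cacna1d and Cacna2d1 (y axis, linear scale from 0) against the log2 ratio of 3' to 5' control probe sets (x axis), 1 point per array. Signals are lower at higher ratios in both groups, and dehydrated array 5 (ratio 1.61) and control array 1 (ratio 2.52) lie among the arrays of the other group.

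The pacemaker channel genes Hcn2 and Hcn3, whose channels open on hyperpolarization and carry an inward current, had log2 differences of 0.17 ± 0.20 (SE; limma adjusted p = 0.714) and 0.21 ± 0.21 (SE; adjusted p = 0.666). Their intervals reached from -0.25 to 0.59 and from -0.24 to 0.66. Both intervals include a 1.5-fold difference.

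Chloride channels and exchangers held the member with the smallest p. Clcn4, an exchanger of chloride for protons in endosomes, read 96.5, 67.6, 92.8, 91.7 and 99 on the dehydrated arrays and 123.3, 125.9, 114.5, 110.8 and 118.2 on the control arrays. The groups did not overlap, and dehydrated array 2 stood well below the rest of its group. The means were 89.5 ± 12.6 and 118.5 ± 6.19 (SD, n = 5). Its log2 difference was -0.40 ± 0.11 (SE; limma adjusted p = 0.0674), a fold of 0.760. Without dehydrated array 5 it was -0.43 with an adjusted p of 0.035, and over all alternatives the adjusted p ran from 0.035 to 0.226.

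Clcn2, a plasma membrane chloride channel that opens on hyperpolarization and cell swelling, read 48.9, 41.8, 48.3, 34.4 and 53.2 on the dehydrated arrays and 72, 57.5, 65.7, 43.9 and 73.3 on the control arrays. Control array 4 lay within the dehydrated range and the other 4 control arrays lay above it. On the log2 scale the difference was -0.42 ± 0.16 (SE; limma adjusted p = 0.178). Clcn6, a late endosomal exchanger, had -0.15 ± 0.11 (SE; adjusted p = 0.481).

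Clcn3, a close relative of Clcn4 on endosomes and secretory vesicles, gave different answers by probe set. The probe set with the highest mean read 1579, 1377, 1530, 1348 and 1115 on the dehydrated arrays and 1385, 1328, 1254, 1381 and 1207 on the control arrays, a log2 difference of 0.08 ± 0.09 (SE; limma adjusted p = 0.706). Another read 452.7, 497.9, 471.5, 540.1 and 531 against 598.6, 586.5, 614.2, 591.7 and 569.9. On this one the groups did not overlap, and the log2 difference was -0.25 ± 0.07 (SE; adjusted p = 0.0669). The 2 further tested probe sets gave -0.03 and 0.06. The difference between the first pair was not called (exact two-sided permutation p = 0.0635, adjusted over 13 pairs 0.275).

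Of the 39 member genes with several probe sets, 11 had such second readings, in 13 pairs of tested probe sets. The rest of the 39, Kcne3 among them, had no tested pair. These comparisons were added after the data had been seen. The pairs agreed in sign in 6 of 13, and 0 of the second probe sets was called. In Kcnc2 the used probe set gave 0.07 and another -0.47 (limma adjusted p = 0.244), but that other one had a dehydrated mean of 19.9, below the filter's limit, and was tested only through its control arrays. In Kcnq5 the 2 probe sets gave 0.17 and -0.51 (adjusted p = 0.0957). For both genes the change between groups in the difference of the 2 probe sets had an exact two-sided permutation p of 0.0397 (adjusted over 13 pairs 0.258). In Kcnd3, Scn3b and Trpm7 the 2 readings differed by at most 0.06. In 37 members there was 1 probe set, and no second reading.

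**Figure D4:**
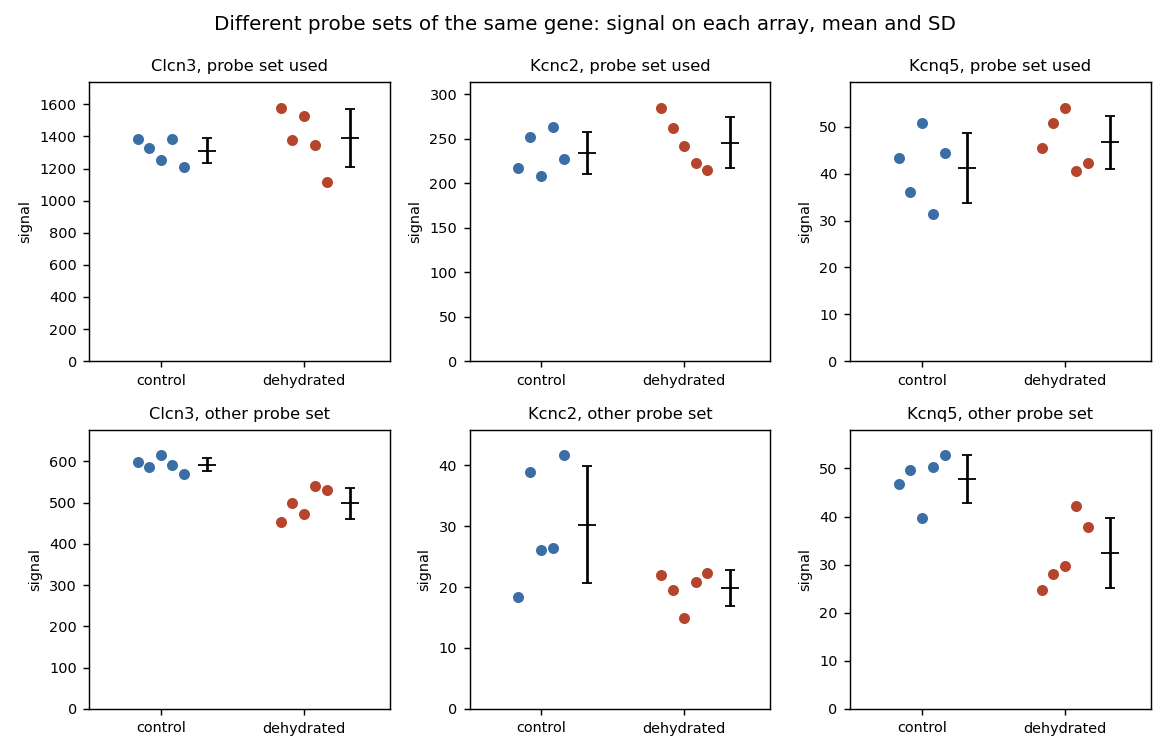
Signal on each array (y axis, linear scale from 0 in arbitrary units) for 2 probe sets each of Clcn3, Kcnc2 and Kcnq5, with mean and SD of 5 arrays per group. In the upper row the groups overlap, while in the lower row the dehydrated arrays of Clcn3 lie wholly below the control arrays and those of Kcnc2 and Kcnq5 overlap with them.

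Transient receptor potential channels, which pass cations in response to lipids, stretch, temperature and osmotic conditions, had 8 members, of which 6 were tested and none was called. Trpv5, a calcium-selective channel best known from epithelia, read 43.5, 57.2, 59.7, 54.5 and 52.1 on the dehydrated arrays and 78.6, 78.4, 67.7, 56.8 and 58.6 on the control arrays. The groups overlapped. This amounted to a log2 difference of -0.32 ± 0.13 (SE; limma adjusted p = 0.226). Trpm7, a channel fused to a kinase, had -0.06 ± 0.11 (SE; adjusted p = 0.827), and Trpm3, a steroid- and heat-sensitive channel, -0.02 ± 0.10 (SE; adjusted p = 0.944). The osmosensory genes Trpv1 and Trpv4 did not reach the signal threshold and are not members, and Trpv2 was too dim for the filter, with 0.09 in the fit without it. Trpc4ap, which matched by its symbol but encodes a binding protein and no channel, had -0.01 ± 0.09 (SE; adjusted p = 0.974).

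In all, 8 members did not pass the filter: Kcnip1, Kcna5, Kcnv1, Kcnn3, Kcnn4, Kcnk3, Trpc6 and Trpv2. In the fit without a filter none of them was called. Kcnn4, the intermediate-conductance calcium-activated potassium channel, had means of 28.9 ± 8.02 and 17.9 ± 5.95 (SD, n = 5) and a log2 difference of 0.58 ± 0.23 (SE; limma adjusted p = 0.305). Kcnv1, a modifier of other potassium channels, had means of 17.1 ± 7.28 and 28.4 ± 9.66 (SD, n = 5). Its log2 difference was -0.59 ± 0.29 (SE; limma adjusted p = 0.418). The other 5 beside Kcnip1 lay between -0.22 and 0.41.

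A list of 86 other channels and of proteins that bind, traffic or gate channels was set beside the members. It had 74 genes with a probe set and 55 tested, of which 3 were called higher and 1 lower, or 7.27% against 2.46% of all probe sets, and 51 were not called. The list was chosen with earlier results of these data known, so these shares are not a test of it. The median log2 difference was -0.02. Gem encodes a small GTPase that binds the beta subunits of calcium channels and suppresses their current. It read 241.8, 229.9, 204.4, 245.5 and 209.7 on the dehydrated arrays and 576.2, 683.1, 567, 289.6 and 557.2 on the control arrays. The groups did not overlap, although control array 4 came close to the dehydrated range. Gem fell by 1.17 ± 0.17 on the log2 scale (SE; limma adjusted p = 0.000823), from 535 ± 146 to 226 ± 18.6 (SD, n = 5). Its relative Rem2 had -0.43 ± 0.13 (SE; adjusted p = 0.0941). The beta subunits that Gem binds are the Cacnb genes given above, of which none was called.

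Fxyd5, a single-span regulator of the sodium pump, rose from 139 ± 12.9 to 219 ± 20.5 (SD, n = 5; log2 difference 0.64 ± 0.09 SE, limma adjusted p = 0.000902). Lgi1, a secreted protein found in complexes with Shaker channels and their beta subunits, rose from 155.5 ± 10.7 to 220.1 ± 37.7 (SD, n = 5; log2 difference 0.47 ± 0.11 SE, adjusted p = 0.0264). Vdac2, a pore of the outer mitochondrial membrane, rose from 1261 ± 58.9 to 1552 ± 90.6 (SD, n = 5; log2 difference 0.30 ± 0.07 SE, adjusted p = 0.0205). For all 3 genes every dehydrated array lay above every control array, as in 2.78% of all probe sets. They are named because they were called, so this separation is no further test. The count of called partners was 2 without an intensity trend and 2 with no moderation of the variance, and it ran from 2 to 4 when single arrays were left out, being 2 without dehydrated array 3, control array 2 or control array 3.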

How the data were processed

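The members and the lists of partners and markers were chosen with earlier results of these data known. The authors deposited 1 linear intensity per probe set and array, and GCOS 1.2 is named in the submitters' processing notes. Each deposited array had a mean of 100.0 after trimming 2% at each end, so no scaling was added and changes are relative to the average probe set. Detection calls were not used here. Of 31099 probe sets, 57 controls were left out, and 20826 had 1 symbol in the platform annotation, 436 several and 9780 none. Through the gene ID, 20764 matched RefSeq (GRCr8), which changed 0 symbols.

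Intensities were transformed as log2(signal + 5), which understates changes of dim genes. By mean log2 value, the upper 60% stayed in the tests (18625 probe sets, down to a signal of about 22.4). The group comparison used limma 3.58.1 under R 4.3.3 (lmFit, eBayes with an intensity trend, two-sided, Benjamini-Hochberg, called at an adjusted p under 0.05), and single values with exact permutation over 252 groupings. The steps were tested on simulated data. Python 3.11.15, numpy 2.4.6, scipy 1.17.1, pandas 2.3.3 and matplotlib 3.10.9 were used. Members were named if called, if first by p in a family without a call, or if on a list of channels, and partners if called. Other genes and second probe sets were named after their values were seen. Alternatives covered scaling, pseudocounts of 1 and 16, filters, variance models, covariates, arrays left out, probe set choice and member thresholds of 10 and 50.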

Additional observations from a re-analysis of the deposited data

Results flagged for a closer look

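In 5 of 88 groups of 5 arrays, 1 array stood apart from the other 4 by Dixon's criterion, where chance gives about 1 in 20 groups. Clcn4 read 67.6 on dehydrated array 2, below the other 4 of its group at 91.7 to 99. Kcna2 read 149.3 on control array 1, below 209.6 to 231.1. Scn2a read 136.6 on control array 4, above 103.2 to 110.7. Trpc4ap read 243 on dehydrated array 4, below 275.6 to 286.7, and Trpm3 read 293.8 on dehydrated array 5, below 360 to 388.6.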

How the results depend on the processing

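No paired analysis was possible because the labels give no replicate numbers. The count of called members, 0 in the reported fit (14 at an unadjusted p under 0.05), was 1 after quantile normalization (Scn7a), 2 without dehydrated array 5 and control array 1 together (Cacna1d and Cacna2d1), 0 to 1 when single arrays were left out (Clcn4, without dehydrated array 5), and 0 under every other alternative run, member thresholds of 50 and 10 included. Shares of all probe sets called at an adjusted p are not given for these alternatives, so the calls are not particular to channels. At an unadjusted p under 0.05, 12.2% of all probe sets were lower and 10.8% higher without both arrays. Without dehydrated array 5 alone they were 11.7% and 10.6%, after quantile normalization 8.3% and 8.63%, and in the reported fit 8.66% and 8.7%. The count of called partners, 4, was 2 without an intensity trend, 2 with an unmoderated linear model and 2 to 4 when single arrays were left out (2 without dehydrated array 3, control array 2 or control array 3). Of 41 named genes, 27 kept the sign of their difference under all 25 alternatives that gave a value, and 14 did not, each with a reported difference under 0.2 in size. The cause was not tested.

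Log2 differences with the opposite sign were, after quantile normalization, Clcn3 -0.021, after cyclic loess Clcn3 -0.0036, and after averaging the probe sets of a gene Cacnb2 -0.014 and Clcn3 -0.036. Centring on the median gave Trpc4ap 0.028 and Trpm3 0.017, and array weights gave Kcnc1 -0.021. Adding the RNA length ratio as a covariate gave Cacna1b -0.031, Cacna1c -0.083, Cacnb2 -0.021, Clcn3 -0.0079, Kcnab2 -0.043, Kcnc1 -0.019 and Trpc4ap 0.040, and adding the anterior lobe hormone signal gave Cacna1c -0.037 and Kcnc1 -0.012. Without dehydrated array 5 and control array 1 together the values were Kcnc1 -0.015, Scn7a 0.0089, Trpc1 0.075, Trpm3 0.014 and Trpm7 0.033. With single arrays left out the ranges were -0.012 to 0.036 for Cacnb2, -0.10 to 0.19 for Kcnab2, -0.060 to 0.067 for Cacna1c, -0.068 to 0.084 for Kcnc1, -0.087 to 0.12 for Cacna1b, -0.23 to 0.026 for Kcna2, -0.093 to 0.021 for Scn2b, -0.039 to 0.041 for Trpc4ap, -0.22 to 0.026 for Trpc1, -0.063 to 0.053 for Trpm3, -0.11 to 0.0091 for Trpm7 and -0.14 to 0.013 for Scn3a. Kcne3 was below the filter under some alternatives and had no value there. How far each probe set stood above background is not known.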
